A study of Rattus norvegicus with 63 samples.

Results

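Livers of rats given methylcarbamate (Mcarb) were set directly against livers of rats given acetamide (AA), which is 6 arrays of the 63 in the series, 3 for each compound. They were picked by their sample titles alone, and no measured value entered the choice. All animals were male Wistar Hanover rats, 8 to 10 weeks of age at the start, dosed daily through a stomach tube, and each array held the liver RNA of 1 animal. The daily dose was 400 mg/kg for Mcarb and 3000 mg/kg for AA, both over 14 days. Both compounds shared 1 set of concurrent controls, MC set 1, which were 3 animals that received the methylcellulose vehicle alone for 14 days. The labels name methylcellulose, and the methods text of the study uses both this name and carboxymethyl cellulose. The animals put on arrays were selected from larger dosed groups after histopathology, so they are separate animals but no random draw. Since the doses differed, compound and dose cannot be told apart in any result here.

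AA is the amide of acetic acid, and Mcarb is the methyl ester of carbamic acid, so that Mcarb carries an oxygen atom between its methyl group and its carbonyl group that AA lacks. The study places both among the non-genotoxic liver carcinogens. As background, hepatocytes make up most of the liver's RNA, and their identity is held by transcription factors such as Hnf4a and Cebpa. Interferons are secreted signals of the innate immune response. They act through transcription factors, Stat2 and Irf9 among them, on a short motif in target promoters, which turns on antiviral genes such as Mx1 and the Ifit and Oas families, while interferon gamma also raises chemokines and antigen presentation.

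Expression was measured on the log2 scale at 15866 probe sets, of which 12783 carried 1 gene symbol and gave 10411 genes, each represented by its brightest probe set. Array medians over the series lay between 7.42 and 7.51. The tissue label was borne out by hepatocyte transcripts. The mean log2 level of 11 hepatocyte markers, albumin (Alb) among them, was 13.55 to 13.65 in Mcarb animals, 13.60 to 13.71 in AA animals and 13.53 to 13.54 in controls. Mcarb replicate 3 stood apart from the other arrays compared. Its score on the first principal component of the 9 arrays was 29.51, against -1.85 and 2.33 for the other Mcarb animals, -8.28 to 5.21 for AA and -8.71 to -4.78 for the controls. It also had the lowest mean correlation with its own group in the series, 0.9886. Without it, 23 of the 52 called genes that the naming rule picked were no longer called by limma. These were Srrm2, Irf1, Vcam1, Anp32a, Sparcl1, Hmox1, Taldo1, Fdft1, Insr, Gpam, Ctsc, Ddit3, Stab1, Cd74, RT1-Db1, RT1-Da, RT1-Ba, Ccl5, Ifit1, Psmd11, Psme4, Psmd4 and Psmd2.

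Mcarb and AA livers differed at 821 of 15866 probe sets (5.17%) at an adjusted p below 0.05, the level at which a probe set is termed called. The test was limma on all 63 arrays with Benjamini-Hochberg adjustment. Of these, 374 were higher and 447 were lower in Mcarb. The differences were small. Their median size was 0.38 on the log2 scale, and 5 of the called probe sets differed by 2.5-fold or more. The study applied a 2.5-fold limit to another contrast, treated animals against vehicle controls, for its pathway features. At the level of genes, 273 (2.62% of 10411) were higher and 208 (2%) were lower in Mcarb. Against the shared controls the same model called 169 probe sets for Mcarb (124 higher, 45 lower) and 739 for AA (434 higher, 305 lower). With 3 animals against 3, an exact permutation test of a single gene cannot go below p = 0.1, so the calls rest on the model, which shares its estimate of the spread across 21 groups. Without Mcarb replicate 3 the direct comparison called 349 probe sets (164 higher, 185 lower). It called 520 without Mcarb replicate 1, 1462 without Mcarb replicate 2, 412 without AA replicate 2, and 607 and 557 without AA replicates 1 and 3. With the 6 compared arrays alone it called 18 (4 higher, 14 lower).

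**Figure D1:**
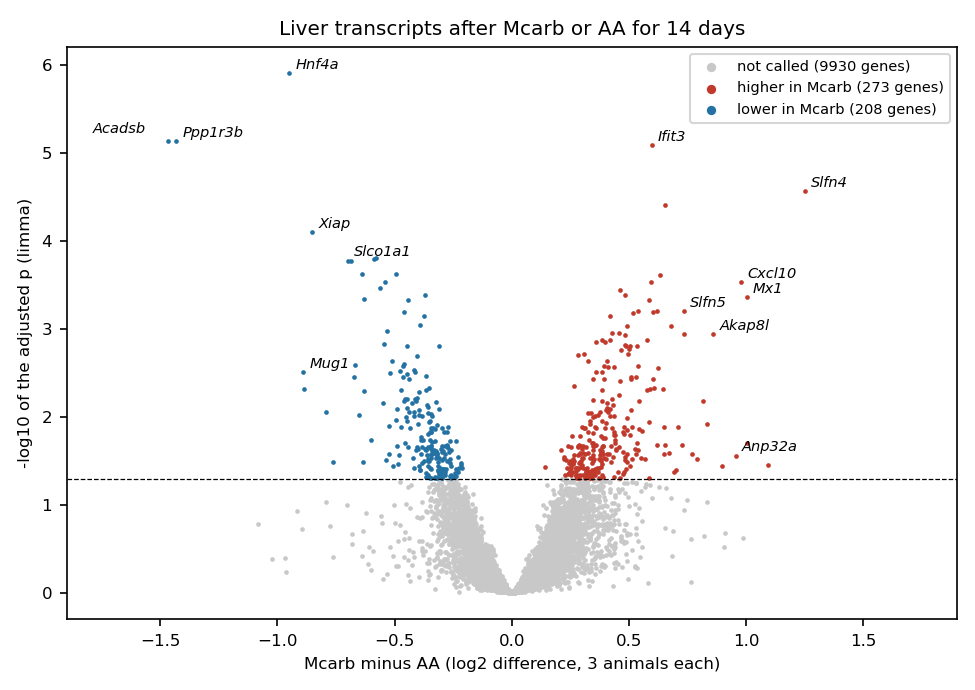
Each point is 1 of 10411 genes; the x axis gives the log2 difference of Mcarb minus AA (3 animals each) and the y axis -log10 of the adjusted p from limma, with a dashed line at 0.05. The 273 red genes were higher and the 208 blue genes lower in Mcarb, from Slfn4 at 1.25 to Acadsb at -1.47.

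Several of the 12 leading genes higher in Mcarb than in AA are known as interferon-inducible. These 12 had the largest differences among called genes whose Mcarb and AA values did not overlap, so that separation was required. The 12 leading lower genes were picked by the same rule. Called genes with overlap, such as RT1-Da (1.09) and Cd74 (1.01), are described further below. First among the 12 higher genes was Slfn4, a member of the schlafen family of interferon-inducible growth regulators. Its log2 values were 9.23, 9.21 and 9.83 in Mcarb animals, 8.04, 8.27 and 8.20 in AA animals and 8.18, 8.01 and 8.24 in controls. All Mcarb animals lay above all others, while AA animals and controls overlapped. The difference of Mcarb minus AA was 1.25 ± 0.19 (SE, 3 animals each), or 2.38-fold (limma, adjusted p = 2.72e-05). A dimmer probe set of Slfn4 gave a difference of -0.17 and was not called (values of further probe sets are differences of Mcarb minus AA throughout). The mean of both Slfn4 probe sets differed by 0.54 (limma, adjusted p = 0.000835). Slfn5, of the same family, gave 7.99, 7.56 and 8.22 in Mcarb, 7.12, 7.29 and 7.15 in AA and 7.26, 7.08 and 7.21 in controls, again with only the Mcarb animals raised (difference 0.73, limma adjusted p = 0.000627).

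Mx1, an antiviral GTPase, read 7.48, 6.57 and 7.32 in Mcarb animals, 5.64, 6.29 and 6.44 in AA animals and 5.53, 5.59 and 5.56 in controls. Mcarb replicate 2 and AA replicate 3 lay close together. The difference was 1.00 ± 0.18, a 2.00-fold higher level in Mcarb (limma, adjusted p = 0.000434). Znfx1, a helicase-like sensor of viral RNA, was at 10.06, 9.25 and 9.42 in Mcarb, 8.85, 8.43 and 9.0 in AA and 7.97, 8.15 and 8.09 in controls. Here the 3 groups formed 3 steps, with both compounds above the controls and Mcarb above AA by 0.82 (limma, adjusted p = 0.00662). Against the controls Znfx1 differed by 1.51 for Mcarb and by 0.69 for AA (limma, adjusted p = 6.73e-07 and 0.0258).

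Of 50 genes listed as type I interferon targets, 27 were measured. In this list 6 were higher in Mcarb than in AA, 1 was lower, and the median difference was 0.295, against 0.012 over all genes. A total of 25 of the 27 had a positive difference. The 6 were Ifit3, Mx1, Stat2, Dtx3l, Oas1b and Sp110, and Ifit1 was the 1 lower, so that 25.9% of the list was called, against 4.62% of all genes. Sp110, a nuclear body protein, had the smallest margin (difference 0.37, limma adjusted p = 0.0489). Without Mcarb replicate 3 the list had 5 members higher and 0 lower. It had 3 higher and 1 lower without Mcarb replicate 1, and 3 higher and 0 lower without AA replicate 1.

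Ifit3, a tetratricopeptide protein of the antiviral response, had close replicates. Its values were 7.73, 7.73 and 7.67 in Mcarb, 7.19, 7.06 and 7.09 in AA and 6.70, 6.67 and 6.52 in controls. Each group sat apart from the next by more than its own spread, with Mcarb highest (difference from AA 0.60 ± 0.08, limma adjusted p = 8.2e-06). Stat2, the transcription factor that carries the type I interferon signal, read 10.33, 10.17 and 10.27 in Mcarb, 9.52, 9.73 and 9.98 in AA and 9.79, 9.87 and 9.74 in controls. All Mcarb animals and AA replicate 3 exceeded every control, and the difference from AA was 0.51 (limma, adjusted p = 0.0035), with a second probe set at 0.35 that was not called. Dtx3l, a ubiquitin ligase that works with Parp9, was at 9.88, 9.62 and 9.59 in Mcarb, 8.66, 8.86 and 9.37 in AA and 8.99, 9.35 and 8.89 in controls. AA replicate 3 came closest to the Mcarb range (difference 0.73, limma adjusted p = 0.0209).

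Oas1b, of the oligoadenylate synthetase family that activates RNase L, gave 5.24, 5.31 and 4.93 in Mcarb, 4.65, 4.97 and 5.02 in AA and 4.66, 4.67 and 4.64 in controls. Mcarb replicate 3 fell within the AA range, and the difference was 0.28 (limma, adjusted p = 0.0221). These values are low: all lie below 6, the limit of the filter on low values, and the lowest value of the series was 3.96. Ifit1, an RNA-binding relative of Ifit3, went the other way. Its values were 9.25, 7.95 and 7.45 in Mcarb, 9.0, 8.89 and 9.04 in AA and 7.86, 7.95 and 7.82 in controls. All AA animals were raised, whereas in Mcarb only replicate 1 was, so that the Mcarb animals lay on both sides of the AA range (difference -0.76 ± 0.22, limma adjusted p = 0.0324). Ifit1 was represented by 1 probe set and its call was lost in 10 of 16 alternative settings. Of the members called higher, Dtx3l lost its call in 7 settings, Oas1b in 6, Mx1 and Stat2 in 2 each and Ifit3 in 1.

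**Figure D2:**
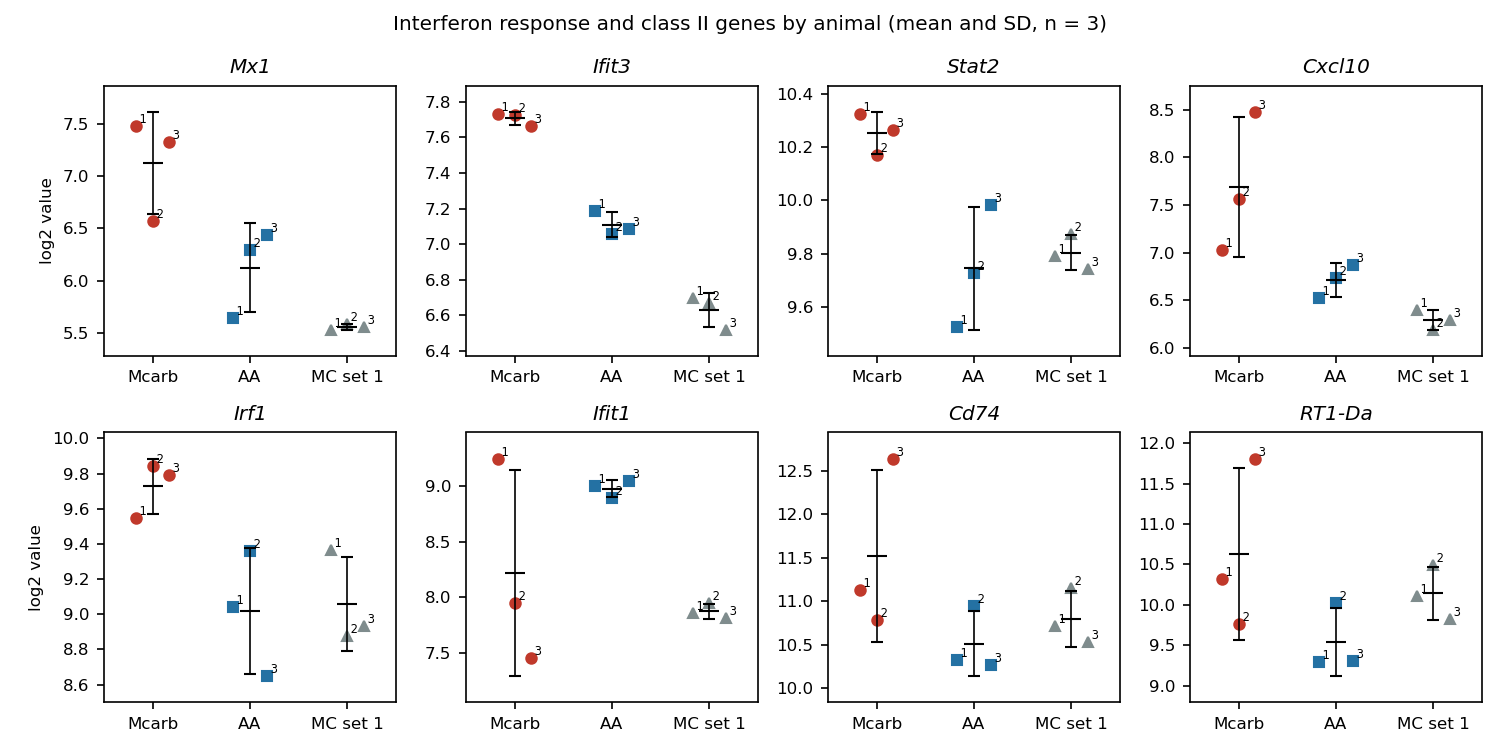
Log2 values of 8 interferon response and class II genes by animal (numbers are replicates), with Mcarb at left, AA in the middle and MC set 1 at right; bars give the mean and SD of 3 animals. Mx1, Ifit3 and Cxcl10 step down between the groups, Ifit1 is raised in all AA animals but in Mcarb replicate 1 alone, and Cd74 and RT1-Da stand high in Mcarb replicate 3.

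Several strong interferon targets were raised by both compounds without passing the direct test, and are named here after their values were seen. Irf7, the interferon-amplifying transcription factor, read 11.46, 10.76 and 11.27 in Mcarb, 10.04, 10.65 and 11.22 in AA and 9.06, 8.89 and 9.13 in controls. Both treated groups were far above the controls and overlapped each other, with a difference of 0.53 (95% interval 0.14 to 0.91, limma adjusted p = 0.0983). Oas1a differed from the controls by 2.62 for Mcarb and 2.22 for AA, and between the compounds by 0.40 (-0.22 to 1.02). Rsad2, the antiviral viperin, differed from the controls by 1.97 and 1.49 for Mcarb and AA, and between them by 0.48 (0.07 to 0.90, limma adjusted p = 0.164). These intervals reach from near or below 0 up to about the size of the Mx1 difference, so it was not shown that the compounds act alike on these genes. Among 18 genes of interferon sensing and signalling 1 was called (5.56%, near the 4.62% of all genes). This was Irf3, the factor that induces interferon genes, at 9.26, 9.16 and 9.17 in Mcarb, 8.72, 8.65 and 8.73 in AA and 9.51, 9.25 and 9.20 in controls. Here the AA animals were the ones that lay apart, below both other groups (difference of Mcarb minus AA 0.50, limma adjusted p = 0.0017; AA minus controls -0.62, adjusted p = 0.000101). Nfkbia, an inhibitor of NF-kappaB and the next member by size, differed by 0.40 and was not called (limma, adjusted p = 0.163).

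The interferon gamma and antigen presentation list had 7 of 29 members higher in Mcarb and 0 lower (24.1% called, against 4.62% of all genes), with a median of 0.247. The chemokine Cxcl10, which attracts T cells, read 7.03, 7.57 and 8.48 in Mcarb, 6.52, 6.74 and 6.88 in AA and 6.40, 6.19 and 6.30 in controls. Mcarb replicate 3 was the highest by far (difference 0.98 ± 0.17, limma adjusted p = 0.000296). Without that animal the Cxcl10 difference was 0.59 (limma, adjusted p = 0.0202). Irf1, a transcription factor induced by interferon gamma, was at 9.55, 9.84 and 9.79 in Mcarb, 9.04, 9.36 and 8.65 in AA and 9.37, 8.88 and 8.93 in controls. Every Mcarb animal exceeded every other animal (difference 0.71, limma adjusted p = 0.0129).

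The class II genes were called as well, but 1 Mcarb animal stood far above the rest. Cd74, the invariant chain that escorts class II molecules, read 11.12, 10.78 and 12.64 in Mcarb, 10.33, 10.94 and 10.27 in AA and 10.71, 11.15 and 10.53 in controls. Mcarb replicate 3 lay far above the other 8 animals, and the groups overlapped (difference 1.01 ± 0.27, limma adjusted p = 0.0196). RT1-Da, a class II alpha chain, read 10.32, 9.76 and 11.81 in Mcarb, 9.29, 10.02 and 9.30 in AA and 10.10, 10.49 and 9.83 in controls, with the same animal on top. RT1-Ba and RT1-Db1, further class II chains, differed by 0.90 and 0.79, and a second probe set of each was not called. Irf8, a myeloid and B cell transcription factor, completed the 7 with a difference of 0.70 (limma, adjusted p = 0.0404). Without Mcarb replicate 3 the list had 1 member called higher, without AA replicate 3 it had 1 higher and 1 lower, and without AA replicate 1 it had 2 higher. Ccl5, a chemokine of T cells, and Cd74 were the 2 of 17 lymphocyte markers called (11.8%, against 4.62% of all genes). The median of that list was 0.013, near the 0.012 of all genes. Ccl5 too was highest in Mcarb replicate 3, at 8.61, 8.80 and 9.79 in Mcarb, 8.33, 8.80 and 8.10 in AA and 8.57, 8.59 and 8.45 in controls (limma, adjusted p = 0.0209). Neither Ccl5 nor Cd74 was called without Mcarb replicate 3.

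The mean level of macrophage markers was highest in that animal, and in both treated groups it lay above the controls. None of 19 measured macrophage and Kupffer cell markers was called (0 of 19 by limma, with 16 positive and a median of 0.295). Their mean log2 level was 9.11, 9.0 and 9.68 in Mcarb, 8.97, 9.12 and 8.91 in AA and 8.79, 8.87 and 8.72 in controls. Csf1r, the growth factor receptor of macrophages, read 9.26, 8.98 and 10.21 in Mcarb, 9.01, 8.89 and 8.77 in AA and 8.76, 8.91 and 8.61 in controls (limma, adjusted p = 0.0591). Gpnmb, a lysosomal protein of phagocytes, read 9.58, 8.90 and 11.14 in Mcarb, 9.47, 9.14 and 8.95 in AA and 8.34, 8.54 and 8.19 in controls (limma, adjusted p = 0.197). Against the controls both were called for Mcarb (0.72 and 1.52, limma adjusted p = 0.0469 and 0.00575) and neither for AA (0.13 and 0.83, limma adjusted p = 0.763 and 0.122). The list median was 0.542 for Mcarb minus controls and 0.227 for AA minus controls. Without Mcarb replicate 3 the list median of Mcarb minus AA was 0.055. The part of these cells in the class II result was not tested, and in whole liver more cells of a type cannot be told apart from more RNA per cell. The cell cycle list moved with the same animal and with AA replicate 1. Its mean level over 56 genes was 7.22, 7.56 and 8.28 in Mcarb, 8.09, 7.36 and 7.06 in AA and 7.20 to 7.22 in controls, 0 of 56 were called, and 7 or 18 were called higher without Mcarb replicate 1 or AA replicate 1. Cdkn3, a mitotic phosphatase, read 6.45, 7.76 and 10.33 in Mcarb and 8.82, 7.16 and 5.61 in AA (difference 0.99, limma adjusted p = 0.235). Ccnb2, a mitotic cyclin, differed by 0.76 (limma, adjusted p = 0.246).

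Promoters are shown for 4 called interferon genes because the interferon motifs can be read in them. The sequences are from RefSeq (build GRCr8), run from 250 bases before to 50 bases after the start of the gene, and are given 5′ to 3′ on the strand of the gene. Capitals mark the core of the interferon-stimulated response element, GAAANNGAA searched on both strands (in Ifit3 it is read on the opposite strand), or the gamma-activated sequence, TTCNNNGAA, which is its own reverse complement. In these promoters no stretch counts for both motifs. Ifit3 lies on the plus strand at chr1:241527076-241527375, Oas1b on the minus strand at chr12:41395803-41396102, Cxcl10 on the plus strand at chr14:15988816-15989115 and Irf1 on the plus strand at chr10:38417685-38417984.
Ifit3: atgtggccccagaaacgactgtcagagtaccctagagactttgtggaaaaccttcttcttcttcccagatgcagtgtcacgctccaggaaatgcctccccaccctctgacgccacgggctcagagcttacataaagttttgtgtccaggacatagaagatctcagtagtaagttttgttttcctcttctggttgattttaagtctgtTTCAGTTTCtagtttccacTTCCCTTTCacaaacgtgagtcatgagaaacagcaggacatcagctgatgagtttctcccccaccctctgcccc
Oas1b: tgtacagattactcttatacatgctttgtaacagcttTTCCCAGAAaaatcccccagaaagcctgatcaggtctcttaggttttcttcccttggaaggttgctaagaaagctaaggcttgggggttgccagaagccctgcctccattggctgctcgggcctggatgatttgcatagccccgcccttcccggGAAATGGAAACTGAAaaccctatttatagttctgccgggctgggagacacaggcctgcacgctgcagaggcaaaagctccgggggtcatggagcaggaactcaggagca
Cxcl10: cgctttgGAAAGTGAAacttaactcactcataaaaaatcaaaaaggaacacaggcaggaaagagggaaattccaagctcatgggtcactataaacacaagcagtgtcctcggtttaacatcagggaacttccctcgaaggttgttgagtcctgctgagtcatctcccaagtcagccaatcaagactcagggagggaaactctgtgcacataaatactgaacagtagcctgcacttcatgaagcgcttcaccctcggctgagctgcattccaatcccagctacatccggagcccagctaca
Irf1: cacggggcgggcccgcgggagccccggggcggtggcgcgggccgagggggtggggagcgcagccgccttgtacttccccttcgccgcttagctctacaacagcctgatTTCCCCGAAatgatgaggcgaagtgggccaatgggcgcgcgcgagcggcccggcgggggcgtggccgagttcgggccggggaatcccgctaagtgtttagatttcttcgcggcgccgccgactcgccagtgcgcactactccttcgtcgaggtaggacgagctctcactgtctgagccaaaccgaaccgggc

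In Ifit3 the response element began at -43 and at -24 relative to the start, in Oas1b at -59 and -53, so that both copies overlap, and in Cxcl10 at -243. The gamma-activated sequence began at -142 in Irf1 and at -213 in Oas1b. All 13 called genes of the 2 interferon lists that were higher in Mcarb matched a promoter. The response element was present in 5 of these 13 promoters (38.5%) and the gamma-activated sequence in 3 (23.1%). Among 9498 promoters of the measured genes the shares were 6.84% and 6.95%, and among all 33469 promoters supplied 9.71% and 8.87%. The 13 genes were taken from lists of interferon genes, so their shares are no independent evidence. Of the 12 leading genes higher in Mcarb, 11 matched with 12 promoters, of which 4 held the response element. Of the 12 leading lower genes, 8 matched with 9 promoters, of which 1 did. Mx1, Stat2 and Slfn4 had neither motif in this window. Such a match is a description of letters and was not tested. Srrm2, Ppp1r3b, Xiap, Ddx6, Scarb1 and Ifit1 had no entry.

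Several RNA processing genes were higher in Mcarb than in AA, and here the AA animals were the ones that lay apart from the controls. Of 36 splicing factors and Clk kinases, 4 were higher in Mcarb than in AA and 0 lower (11.1% called, against 4.62% of all genes), with a median of 0.182, against 0.012 over all genes, and 31 positive differences. Akap8l, a nuclear matrix protein that binds splicing factors, read 8.96, 8.69 and 8.54 in Mcarb, 7.72, 7.83 and 8.07 in AA and 9.16, 8.93 and 8.82 in controls. AA animals lay below all others, and Mcarb animals overlapped with the controls (difference 0.86 ± 0.17, limma adjusted p = 0.00115). For AA minus controls the difference was -1.10 (limma, adjusted p = 3.54e-05). A dimmer Akap8l probe set was called too, at 0.53, and a still dimmer one read -0.06.

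Ccnl2, a cyclin that regulates splicing, was at 10.17, 9.83 and 9.99 in Mcarb, 9.33, 9.26 and 9.47 in AA and 10.26, 10.28 and 9.93 in controls, with AA alone set apart (difference 0.65, limma adjusted p = 0.00482). Pnisr, an arginine and serine rich splicing protein, showed the same order at 6.19, 6.10 and 6.01 in Mcarb, 5.58, 5.40 and 5.55 in AA and 6.29, 6.05 and 5.91 in controls (difference 0.59, limma adjusted p = 0.00482), and its second probe set was called too, at 0.26. Both Pnisr probe sets are dim, with means of 5.70 and 4.90 over all arrays, below the limit of 6 of the filter on low values. Srrm2, a scaffold of the spliceosome and of nuclear speckles, read 9.05, 8.68 and 9.13 in Mcarb, 8.46, 7.52 and 8.38 in AA and 8.76, 8.59 and 8.76 in controls. Here AA replicate 2 was far below the rest. The difference was 0.83 (limma, adjusted p = 0.0122), and its second probe set read 0.37 and was not called. The list had 3 to 5 called members whichever single animal was left out. With an index of 2 blocks of probe set numbers as a covariate, described at the end, none of the 4 was called. That index itself differs between the compounds. With it the differences were 0.50 for Akap8l, 0.34 for Ccnl2, 0.38 for Pnisr and 0.22 for Srrm2 (limma, adjusted p = 0.103, 0.215, 0.136 and 0.559).

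A few proteasome genes were higher in Mcarb by smaller amounts. Of 32 measured, 4 were higher in Mcarb and 0 lower (12.5% called, against 4.62% of all genes), and the median was 0.093. Psmd11, a lid subunit, read 11.02, 11.03 and 11.09 in Mcarb, 10.57, 10.53 and 10.81 in AA and 11.08, 10.95 and 11.28 in controls, so that the AA animals were the lowest 3 of 9 (difference 0.41, limma adjusted p = 0.00889), while its second probe set read 0.12 and was not called. Psme4, a proteasome activator, differed by 0.36, Psmd4, a ubiquitin receptor, by 0.35 and Psmd2, a base subunit, by 0.32 (limma, adjusted p = 0.0209, 0.0268 and 0.0446). These calls depended on single animals. Without Mcarb replicate 3 none was called (0 of 32), without AA replicate 2 none either, and none of the 4 was called with the probe set number covariate. Rnd3 was likewise low in AA only, at 9.15, 9.09 and 8.79 in Mcarb, 8.28, 8.51 and 8.04 in AA and 9.05, 8.88 and 8.81 in controls (difference 0.73, limma adjusted p = 0.00115).

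The 2 remaining leading genes need their controls beside them. Anp32a, a histone-binding phosphatase inhibitor, read 10.50, 10.39 and 10.29 in Mcarb, 9.55, 9.46 and 9.29 in AA and 8.70, 8.77 and 10.42 in controls. The Mcarb values and the AA values were each close together (difference 0.96, limma adjusted p = 0.0275). Control replicate 3 sat at the Mcarb level and the other controls below AA. Vcam1, an adhesion molecule of activated endothelium, read 7.21, 6.39 and 7.20 in Mcarb, 6.14, 6.39 and 6.19 in AA and 6.64, 6.70 and 6.15 in controls. Mcarb replicate 2 and AA replicate 2 met at 6.39, and the call (difference 0.69, limma adjusted p = 0.0421) was lost when any animal but Mcarb replicate 2 was left out.

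**Figure D3:**
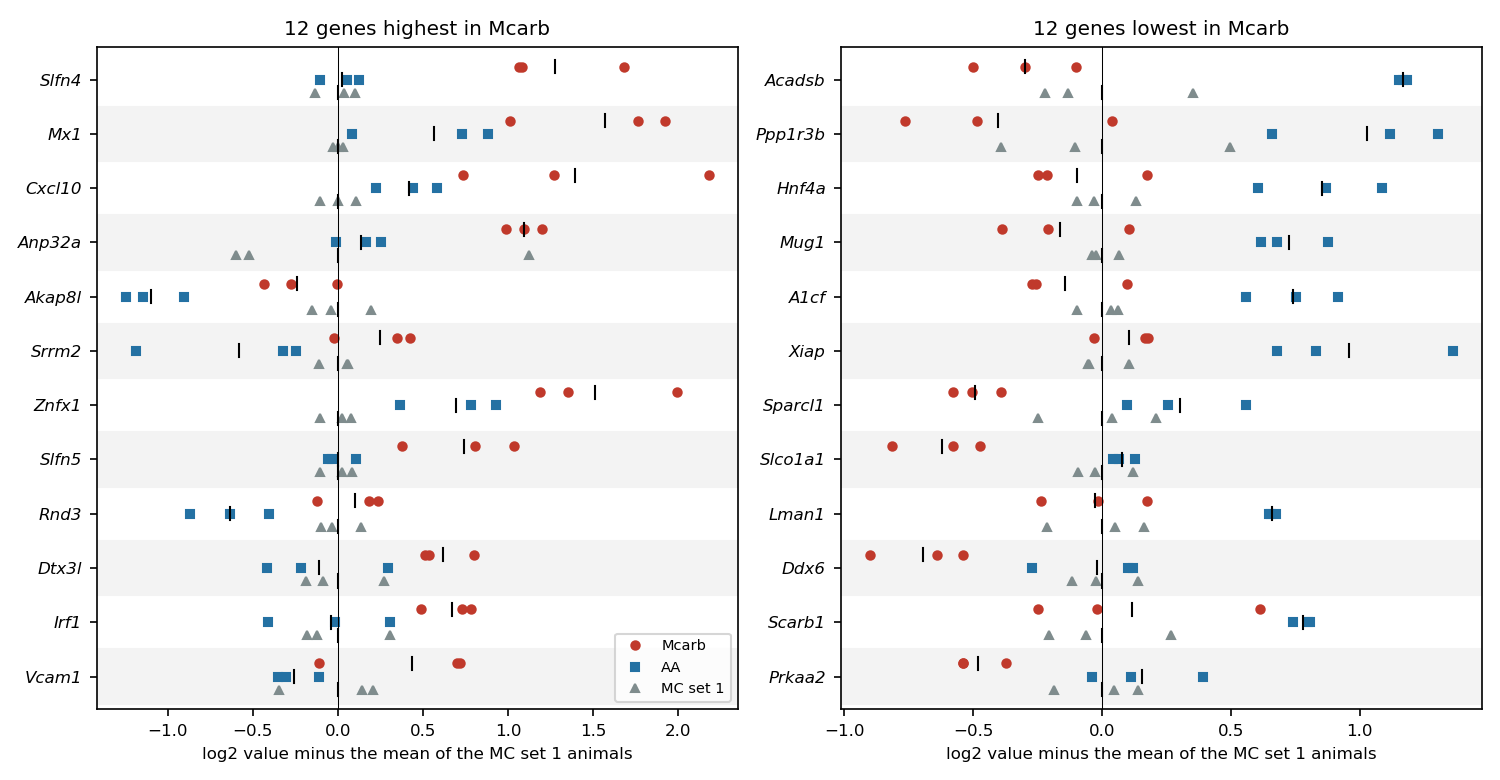
The 12 genes highest (left) and the 12 lowest (right) in Mcarb relative to AA among called genes whose Mcarb and AA values did not overlap. Each has the 3 Mcarb animals drawn above the 3 AA animals and the 3 MC set 1 animals. The x axis is the log2 value minus the mean of the controls and ticks mark group means. Slfn4 and Cxcl10 are raised in Mcarb, Akap8l and Rnd3 are low in AA, and Acadsb, Hnf4a and Xiap are raised in AA.

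Among the genes lower in Mcarb, most of the leading ones were raised in AA while Mcarb stayed near the controls. Acadsb, a mitochondrial dehydrogenase of isoleucine breakdown, read 7.22, 6.82 and 7.03 in Mcarb, 8.51, 8.49 and 8.48 in AA and 7.19, 7.68 and 7.10 in controls. The AA animals were close together and lay above all others (difference -1.47 ± 0.21, 2.77-fold lower in Mcarb, limma adjusted p = 7.42e-06). Ppp1r3b, which targets protein phosphatase to glycogen and so promotes glycogen synthesis in liver, read 7.27, 6.75 and 6.47 in Mcarb, 8.35, 7.90 and 8.54 in AA and 6.85, 7.73 and 7.13 in controls. It was 2.70-fold lower in Mcarb than in AA (difference -1.43 ± 0.20, limma adjusted p = 7.33e-06), and Mcarb overlapped with the controls.

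Hnf4a, the nuclear receptor that maintains hepatocyte identity, had the smallest adjusted p of the 24 leading genes. It read 9.24, 8.85 and 8.81 in Mcarb, 9.93, 9.67 and 10.15 in AA and 8.97, 9.03 and 9.19 in controls. The AA animals were above all others, and Mcarb and control animals overlapped. The difference was -0.95 ± 0.12 (limma, adjusted p = 1.24e-06), and its second probe set was called as well, at -0.52. The other 10 hepatocyte markers were not called, from Apob, the structural protein of lipoproteins, at 0.15 to Cps1 at -0.14. Alb differed by -0.03, with an interval of -0.11 to 0.06.

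Mug1, a plasma protease inhibitor of the macroglobulin family, read 11.36, 11.04 and 10.86 in Mcarb, 11.87, 11.93 and 12.13 in AA and 11.21, 11.31 and 11.22 in controls. A1cf, a partner of the enzyme that edits apolipoprotein B mRNA, gave 8.18, 7.83 and 7.81 in Mcarb, 9.0, 8.64 and 8.84 in AA and 7.99, 8.12 and 8.15 in controls. Both were high in AA alone, and both differed by -0.89 (limma, adjusted p = 0.00309 and 0.00482). Xiap, an inhibitor of caspases, read 6.12, 5.91 and 6.11 in Mcarb, 7.30, 6.62 and 6.77 in AA and 5.89, 6.05 and 5.89 in controls. AA stood apart here too, though its 3 animals spread more widely (difference -0.85 ± 0.14, limma adjusted p = 7.95e-05).

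Lman1, a cargo receptor that carries glycoproteins out of the endoplasmic reticulum, was at 8.69, 8.47 and 8.88 in Mcarb, 9.36, 9.36 and 9.38 in AA and 8.87, 8.76 and 8.50 in controls. The AA values were close together and above the rest (difference -0.69, limma adjusted p = 0.000167). Scarb1, the receptor that takes up cholesterol from high density lipoprotein, read 9.47, 9.24 and 10.10 in Mcarb, 10.29, 10.23 and 10.29 in AA and 9.42, 9.28 and 9.76 in controls. Mcarb replicate 3 came near the AA range (difference -0.67, limma adjusted p = 0.0026), and the second Scarb1 probe set read -0.33 without being called.

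The other 4 leading genes had Mcarb rather than AA further from the controls. Slco1a1, an organic anion transporter of the male liver, read 10.25, 10.15 and 9.91 in Mcarb, 10.77, 10.79 and 10.85 in AA and 10.85, 10.70 and 10.63 in controls. Mcarb lay below both other groups, which overlapped, with a difference of -0.70 from AA (limma, adjusted p = 0.000167) and of -0.62 from the controls (adjusted p = 0.00174). Ddx6, an RNA helicase of mRNA decay, was at 7.79, 7.43 and 7.69 in Mcarb, 8.45, 8.06 and 8.43 in AA and 8.31, 8.21 and 8.47 in controls, with the same order (difference -0.68, limma adjusted p = 0.00348), but its second probe set read 0.27 and was not called. Prkaa2, a catalytic subunit of the energy sensor AMPK, read 9.19, 9.03 and 9.03 in Mcarb, 9.52, 9.68 and 9.96 in AA and 9.38, 9.70 and 9.61 in controls. Mcarb was again the low group (difference -0.64, limma adjusted p = 0.000237). Sparcl1, an extracellular matrix glycoprotein, read 7.21, 7.10 and 7.03 in Mcarb, 7.70, 7.86 and 8.16 in AA and 7.81, 7.36 and 7.65 in controls. All Mcarb animals lay below all others. It differed between the compounds by -0.79 (limma, adjusted p = 0.00889), while neither comparison with the controls passed (adjusted p = 0.275 for Mcarb and 0.393 for AA).

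Of 21 measured cholesterol synthesis and uptake genes, 3 were called lower in Mcarb than in AA and 0 higher (14.3% called, against 4.62% of all genes). The median difference was -0.30, and 0 of the 21 differences were positive. The median was -0.08 for Mcarb minus controls and 0.34 for AA minus controls. Lss, which closes the sterol ring, read 8.45, 8.55 and 8.54 in Mcarb, 9.12, 8.83 and 8.82 in AA and 8.53, 8.55 and 8.69 in controls. AA exceeded both other groups in every animal (difference -0.41, limma adjusted p = 0.0031). Fdft1, squalene synthase, gave 10.48, 10.67 and 10.62 in Mcarb, 11.22, 11.00 and 11.16 in AA and 10.68, 10.51 and 10.90 in controls, and its second probe set agreed at -0.52 (difference -0.54, limma adjusted p = 0.0307). Sc5d, a sterol desaturase, gave 10.60, 10.59 and 10.71 in Mcarb, 11.25, 11.11 and 11.12 in AA and 10.76, 10.50 and 10.87 in controls (difference -0.52, limma adjusted p = 0.0126). In all 3 enzymes the AA animals were above every control. Second probe sets of Lss and Sc5d read -0.13 and -0.19 and were not called. AA replicate 1 was the highest for each, and without it none of the list was called (0 of 21), with a median of -0.22.

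**Figure D4:**
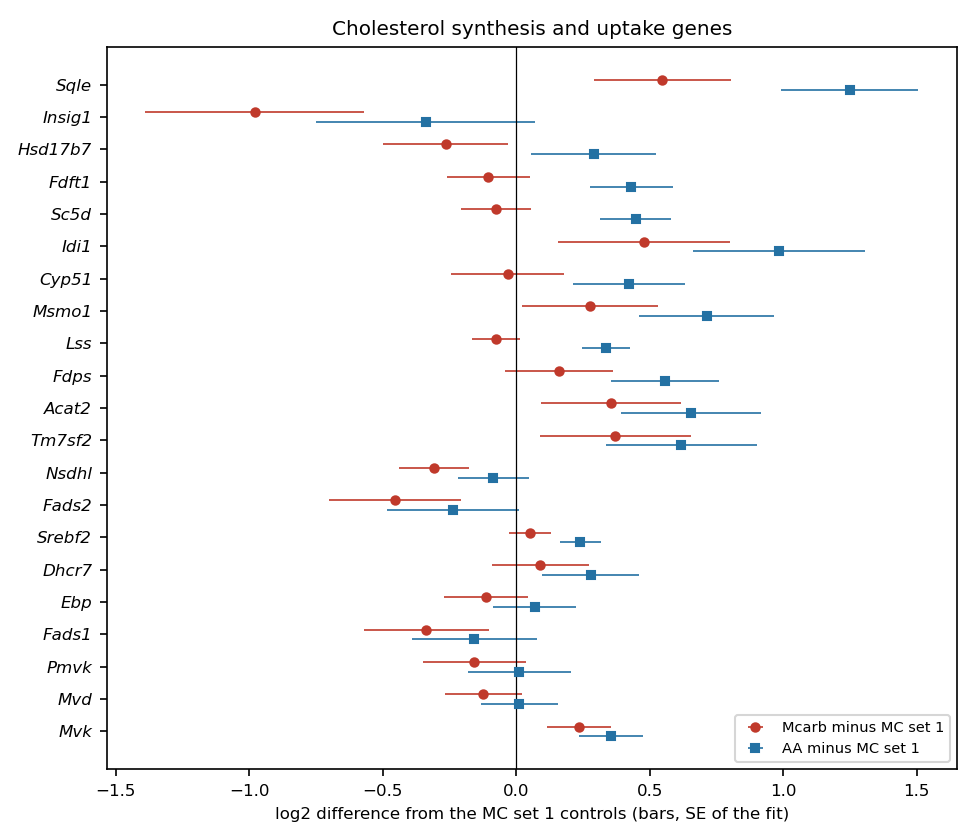
Log2 differences from the MC set 1 controls for 21 cholesterol synthesis and uptake genes, with Mcarb (circles) drawn above AA (squares) for each gene and bars giving the SE of the fit. The Mcarb point lies left of the AA point for all 21 genes, of which Lss, Fdft1 and Sc5d were called in the direct comparison.

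Other metabolic genes were called one by one rather than as lists. Over all genes 4.62% were called, and the shares in these lists were near that. In bile acid genes 2 of 26 were lower in Mcarb and 0 higher (7.69% called, median -0.142), namely Slco1a1 and Nr5a2, a nuclear receptor of bile acid synthesis. Nr5a2 read 6.80, 6.66 and 6.58 in Mcarb, 7.40, 7.18 and 7.19 in AA and 6.81, 6.47 and 6.78 in controls, with AA alone raised (difference -0.58, limma adjusted p = 0.000159). In 34 genes of glycolysis, gluconeogenesis and glycogen 2 were lower and 0 higher (5.88% called, median 0.024), namely Ppp1r3b and Insr, the insulin receptor (-0.38, limma adjusted p = 0.018). Gpam, which starts triglyceride synthesis, was the 1 of 24 fatty acid and triglyceride genes called (4.17%). It was also the 1 of 19 female-predominant liver genes called (5.26%). It read 7.40, 7.45 and 7.04 in Mcarb, 8.15, 7.94 and 7.68 in AA and 6.96, 6.77 and 6.61 in controls. Both compounds lay above the controls and AA above Mcarb (difference -0.63, limma adjusted p = 0.00505). Acss2, which makes acetyl-CoA from acetate, differed by -0.44 and was not called.

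In the NRF2 and glutathione list 2 of 31 were higher in Mcarb and 0 lower, which at 6.45% was near the 4.62% of all genes, and the median was -0.004. Hmox1, heme oxygenase, read 9.68, 8.90 and 9.72 in Mcarb, 8.85, 8.82 and 8.88 in AA and 8.83, 8.86 and 8.62 in controls. Mcarb replicates 1 and 3 were high and replicate 2 lay just above AA (difference 0.59, limma adjusted p = 0.0487). Taldo1, of the pentose phosphate pathway, differed by 0.29 (limma, adjusted p = 0.0488). Neither was called without Mcarb replicate 3. Among 35 ER stress genes 1 was called (2.86%), while 30 differences were positive, with a median of 0.185. The 1 called was Ddit3, a transcription factor of the unfolded protein response, at 8.63, 8.04 and 8.38 in Mcarb, 8.06, 7.35 and 7.62 in AA and 7.62, 7.61 and 7.22 in controls. Mcarb replicate 2 and AA replicate 1 overlapped (difference 0.67, limma adjusted p = 0.0259). Abcd3, a peroxisomal fatty acid transporter, was the 1 of 49 PPARalpha and fatty acid oxidation genes called, at 10.08, 10.57 and 10.43 in Mcarb, 9.44, 9.87 and 9.90 in AA and 10.29, 10.09 and 10.34 in controls (difference 0.62, limma adjusted p = 0.00277).

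**Figure D5:**
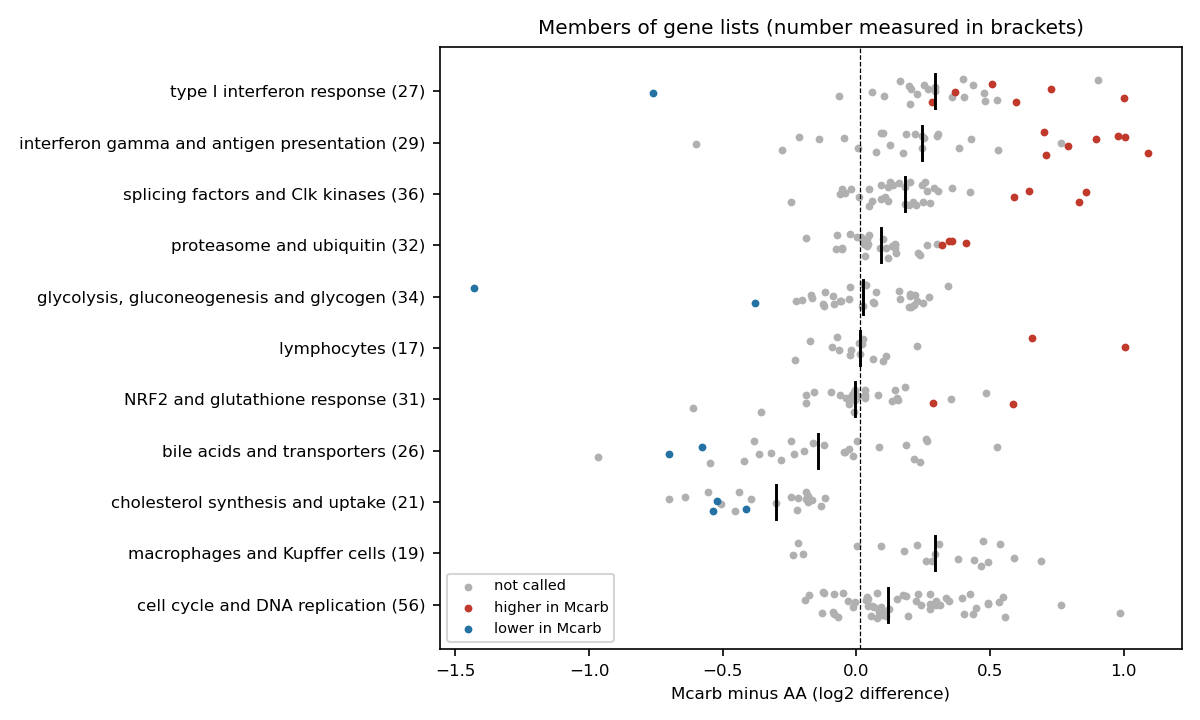
Log2 differences of Mcarb minus AA for each measured member of the 9 gene lists with 2 or more called genes. The macrophage and cell cycle lists, with 0 called, were added outside that rule. Red marks genes called higher and blue genes called lower in Mcarb, black bars the list medians and a dashed line the median of all genes (0.012). Type I interferon genes have a median of 0.295, and all 21 cholesterol genes lie left of 0.

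Further lists had single calls, from 2.86% to 7.69% of their members, against 4.62% of all genes. Among these calls were Ctsc, a lysosomal protease (-0.32), in 19 periportal genes and Stab1, a scavenger receptor of liver sinusoids (0.46), in 13 endothelial markers. Outside the rule for naming genes and named after their values were seen, Tbx3, a transcription factor (-0.46), was the 1 called of 20 pericentral genes, Mtr, methionine synthase (-0.41), the 1 of 24 methionine and one-carbon genes and Il1r1, the interleukin-1 receptor (-0.36), the 1 of 35 acute phase and complement genes. No member was called by limma in the lists of p53 targets (14 measured), CAR and PXR response (26), AHR response (7), heat shock (22), male-predominant genes (15), amino acid catabolism (45), immediate early genes (32), circadian genes (20) and cytosolic ribosomal proteins (33). Of these, the p53 list had 10 of 14 positive differences and a median of 0.248. Its mean level was 8.68, 8.78 and 8.87 in Mcarb, 8.49, 8.60 and 8.57 in AA and 8.46 to 8.50 in controls. Without Mcarb replicate 2 it had 2 members called higher, in a setting that called 613 of 15866 probe sets higher, against 374 with all animals. Some members of the lists without calls had large differences with a wide spread. Cyp1a1, the classic AHR target, read 6.99, 7.03 and 6.77 in Mcarb and 9.48, 6.97 and 7.60 in AA, with AA replicate 1 by far the highest (difference -1.08, limma adjusted p = 0.165). Gadd45a, a growth arrest gene, read 8.83, 8.92 and 8.48 in Mcarb and 7.86, 8.50 and 7.13 in AA (difference 0.91, limma adjusted p = 0.207). Egfr, the epidermal growth factor receptor, read 8.75, 8.99 and 10.70 in Mcarb and 10.83, 10.40 and 10.28 in AA (difference -1.02, limma adjusted p = 0.409). Bhlhe40, a clock repressor, read 8.09, 6.82 and 6.01 in Mcarb and 7.65, 8.46 and 7.50 in AA (difference -0.89, limma adjusted p = 0.187). Ier3, an immediate early gene, read 9.67, 9.83 and 8.92 in Mcarb and 8.35, 9.18 and 8.39 in AA (difference 0.83, limma adjusted p = 0.0929).

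Probe sets of the same gene often disagreed. Of 175 probe sets called lower that were not the brightest of their gene, 7 had the brightest probe set called the same way and 77 had it with the same sign. Their medians were -0.41 for the dimmer and 0.03 for the brightest. Of 47 dimmer probe sets called higher, 7 had the brightest called the same way and 34 had the same sign (medians 0.43 and 0.09). Seen from the brightest probe set, the mean of the others had the same sign in 31 of 57 genes called higher (medians 0.38 for the brightest and 0.02 for the others) and in 40 of 54 called lower (medians -0.37 and -0.12). The calls also followed the probe set number. In 2 blocks of consecutive probe set numbers, picked after the values were seen, 149 of 2000 probe sets were called lower (7.45%) and 19 higher, against 298 lower (2.15%) and 355 higher of the 13866 others. The median of AA minus controls was 0.078 in these blocks and 0.012 outside them. Of the 24 leading genes, 8 were read by these blocks, Hnf4a, Acadsb and Slfn4 among them. A block index was taken for each array as the mean level of the blocks minus that of all other probe sets, centred over the arrays. It was 0.038, 0.067 and 0.032 in AA and -0.06, -0.001 and -0.095 in Mcarb. The index thus separates the compared groups, and as a covariate it can take up part of their difference. How many calls were lost for that reason was not tested. With the index as a covariate, 24 of the 52 called genes named by the rule were still called, and 28 were not. Of the 24 leading genes 16 were still called, and those lost were Akap8l, Srrm2, Znfx1, Slfn5, Dtx3l, Irf1, Vcam1 and Anp32a. The part of the array design in the counts was not tested further.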

How the data were processed

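RNA of 63 rat livers, 3 animals in each of 21 groups, was hybridised to Affymetrix RAE230A arrays. The deposited values are log2 expression levels, which the authors made from scanner files with the robust multi-array average (RMA, version not given in the sources used here). Every column carried a sample (columns without a sample: 0). Control probe sets of the array were left out. Single probe sets of a gene were chosen by the highest mean among those with 1 symbol (12783 with 1, 312 with several and 2771 with none). A group-means model on all 63 arrays (limma 3.58.1, R 4.3.3, the data.table package in version 1.17.8) had 42 residual degrees of freedom, and the Benjamini-Hochberg adjustment took in all 15866 probe sets. Intervals are 95% and not adjusted. The depth of an array has no count, and the precision is limited by 3 animals a group. Genes were named by rule: the 12 highest and the 12 lowest called genes without overlap, up to 6 called members of each list with at least 2, and otherwise the 2 members with the largest differences. The members and lists were chosen with earlier results of these data known. Scripts were tested on simulated data. Figures and promoter searches used Python 3.11.15, pandas 2.3.3 and matplotlib 3.10.9. Alternatives covered the arrays in the fit, array weights, a replicate block, scaling, a filter on low values, the variance trend, leaving out each animal, the probe set rule and, added after the data were seen, the probe set number covariate.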

Additional observations from a re-analysis of the deposited data

Results flagged for a closer look

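For 11 named genes all 3 Mcarb animals lay on one side of the control mean and all 3 AA animals on the other. Those lower in Mcarb than in AA and called by limma were Acadsb (-1.47, adjusted p = 7.42e-06), Sparcl1 (-0.79, 0.00889), Slco1a1 (-0.70, 0.000167), Fdft1 (-0.54, 0.0307), Lss (-0.41, 0.0031), Insr (-0.38, 0.018) and Ctsc (-0.32, 0.0357). Those higher were Psmd2 (0.32, 0.0446) and Taldo1 (0.29, 0.0488). Pdk4, a kinase that restrains glucose oxidation, differed by -0.46 (limma, adjusted p = 0.387) and Cyp3a2, a male-predominant cytochrome P450, by -0.31 (adjusted p = 0.212), and neither passed. The direct comparison is the test of each difference. Groups of 3 animals were too small to be searched for outlying animals.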

How the results depend on the processing

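No named gene that was called changed its direction under the alternatives run. Centring, renewed quantile normalization, the filter on low values and the variance trend left the main counts within 1.5 times. The 6 compared arrays alone gave 18 called probe sets for Mcarb against AA (4 higher, 14 lower), with 0 of the interferon gamma list and 1 of the type I interferon list higher. The 21 arrays that share MC set 1 gave 291 lower, and 53 for Mcarb against controls. Array weights gave 1240 (619 higher), with 274 for Mcarb and 1482 for AA against controls. An adjusted p below 0.01 left 281 and a fold of 2.5 left 5. With the probe set number covariate, AA against controls gave 1182 and the interferon gamma list 1. The replicate number as a block on the 6 arrays gave 0 (0 higher, 0 lower). Deviations of same-numbered animals correlated at -0.29, 0.22 and -0.08, and those of the other pairs at -0.29 to 0.35. With 3 animals a group these values cannot decide whether the numbers pair the animals. Leaving out 1 animal gave 349 to 1462 called (161 to 613 higher, 185 to 849 lower), 42 to 339 for Mcarb and 405 to 804 for AA against controls, 3 to 6 type I and 1 to 8 interferon gamma genes. Of 52 named genes that were called, 29 were still called without Mcarb replicate 3, 24 with the probe set number covariate and 3 with the 6 arrays alone. Causes were not tested.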

Other observations

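The following genes were picked after their values were seen and stand for no group. In the hepatocyte marker list 1 of 11 was called (9.09%, against 4.62% of all genes) and the median was -0.01. Cebpa, a transcription factor of hepatocyte differentiation, read 8.61, 8.34 and 8.63 in Mcarb, 8.89, 9.03 and 9.46 in AA and 8.33, 8.89 and 8.63 in controls (difference -0.60, limma adjusted p = 0.0184). Rxra, the shared partner of many nuclear receptors, read 8.11, 8.06 and 7.99 in Mcarb, 8.61, 8.59 and 8.65 in AA and 8.04, 8.23 and 8.06 in controls (difference -0.56, limma adjusted p = 0.000343). Met, the receptor of hepatocyte growth factor, differed by -0.55, and Stat5b, which carries the growth hormone signal, by -0.36 (limma, adjusted p = 0.00688 and 0.00725). Smg5, a factor of nonsense-mediated mRNA decay, read 7.78, 7.47 and 7.82 in Mcarb, 7.08, 6.77 and 7.26 in AA and 7.22, 7.36 and 7.45 in controls (difference 0.65, limma adjusted p = 3.9e-05), and Mtor, the growth-controlling kinase, differed by 0.35 (limma, adjusted p = 0.01).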
